A study of Mus musculus with 14 samples.

Results

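The genes described here are 10 genes of the growth hormone and insulin-like growth factor axis of the liver, Ghr, Jak2, Stat5b, Socs2, Cish, Igf1, Igfals, Igfbp1, Igfbp2 and Igfbp4. They were chosen by symbol, and all 10 were found, once each, among the 17552 genes of the deposited table. Liver RNA came from male C57BL/6 mice lacking Apoe (C57BL/6J in the methods of the study), aged 8 weeks in the labels. Control mice received a Western diet and the others the same diet enriched with erythrodiol, a triterpene alcohol of the olive, at 10 mg/kg. The labels give 8 weeks of feeding for both groups, and the methods of the study a longer time. Both groups lack apolipoprotein E, a mouse model of raised plasma cholesterol and fatty liver, so that no group with a functional gene enters the comparison. Each of the 7 libraries of a group was made from the pooled RNA of a few mice.

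Growth hormone from the pituitary binds its receptor on hepatocytes and activates the kinase JAK2, which phosphorylates the transcription factor STAT5B. STAT5B drives the genes of IGF1, of its carrier subunit IGFALS, and of the inhibitors SOCS2 and CISH, which in turn dampen the receptor. IGF1 travels in blood bound to a family of IGF-binding proteins, of which the liver secretes several, and hepatic Igfbp1 is held down by insulin through FOXO1. In rodents, the pulse pattern of growth hormone sets much of the difference between male and female liver.

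For each gene the deposited table holds 1 expected count per diet, summed over the 7 libraries, so that a gene has a single value per diet, no spread between libraries and no test. The column totals were 122889032 for control and 124686047 for erythrodiol. A log2 ratio below is that of erythrodiol over control after division by these totals, and its 95% interval (exact binomial, Clopper-Pearson) covers counting error only. Libraries held between 34856340 and 55244294 clean reads in the control and between 47669656 and 48058606 in the erythrodiol group, and 64.3% to 81.4% and 73.0% to 76.1% of these reads, respectively, mapped to genes. Control replicates 1, 3 and 4 stood apart, with 14500, 15154 and 14863 genes and 26483, 30081 and 28632 transcripts detected, against at least 15267 genes and 32370 transcripts in every erythrodiol library. In these 3 libraries 51.4%, 52.7% and 54.2% of clean reads mapped to a unique gene, against 57.9% to 65.3% with erythrodiol and 60.9% to 67.1% in the other 4 control libraries. Their counts are within the control sums and could not be taken out, so that their part in the ratios was not tested. Hepatocyte markers, with Alb and Ttr among them, made up 102542 CPM (counts scaled to the same total in each group) in the control and 102387 with erythrodiol, so that the labelled tissue was seen in both groups. The 10 genes of the axis took 0.253% of the control total and 0.300% of the erythrodiol total.

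The axis genes were spread over a wide range of levels. In CPM per kilobase of gene length, Igfbp4, which encodes a binding protein that restrains IGF1, was the highest with 447 in the control and 562 with erythrodiol. Igfbp2, another secreted binding protein, followed with 338 and 368. Ghr, the growth hormone receptor, had 179 and 213. Igf1 itself was at 65.3 and 70.1, below both binding proteins and the receptor. Igfbp1, the insulin-sensitive binding protein, had 38.6 and 52.6, and Igfals, which encodes the acid-labile subunit of the circulating IGF complex, 35.9 and 44.6. On this scale per length, the intracellular parts of the pathway were lower. Stat5b was at 12.2 and 15.0, and Socs2, a suppressor of cytokine signalling, at 9.20 and 14.4. Jak2, the receptor's kinase, had 5.09 and 5.46, and Cish, a related inhibitor, 4.77 and 8.05. The order was the same on both diets except at the bottom, where Cish stood below Jak2 in the control and above it with erythrodiol. Whether neighbours in this order differ beyond the spread between libraries could not be examined, since 1 value per group was deposited. In the control, Igfbp4 was 93.8 times as high as Cish, and Ghr 35.2 times as high as Jak2.

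**Figure D1:**
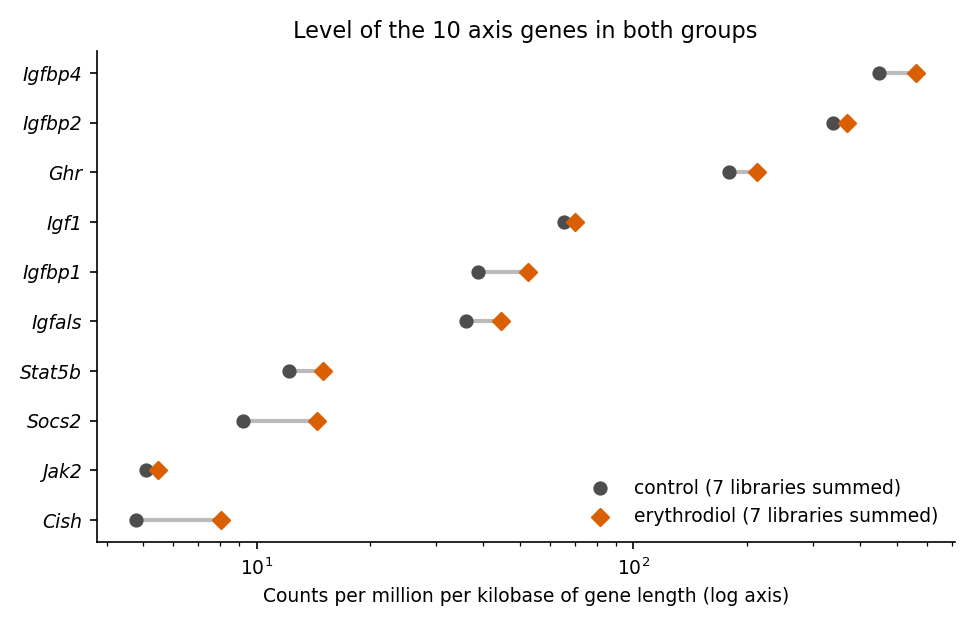
Level of each axis gene in CPM per kilobase of gene length on a log axis, with 1 circle for the summed control libraries and 1 diamond for the summed erythrodiol libraries, genes ordered by the control level. Igfbp4 runs from 447 to 562 at the top and Cish from 4.77 to 8.05 at the bottom, with the widest gaps between the symbols at Cish and Socs2.

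After scaling by the column totals, all 10 genes had a log2 ratio above 0, as did 71.2% of the 13291 genes with at least 100 counts in both groups together, but Igf1, Jak2 and Igfbp2 were below 0 once ratios were centred on the median of all genes. The median of the 10 was 0.31, against 0.16 over the 13291 genes. With erythrodiol 2 of the 10, Cish and Socs2, were at least 1.5-fold higher (2.55% of all genes were), and 0 were at least 1.5-fold lower (3.14% of all genes were). At a limit of 25% there were 4 higher, with Igfbp1 and Igfbp4 added (24.4% of all genes were), and 0 lower (8.89% of all genes were). At 2-fold there were 0 higher (0.218% of all genes were) and 0 lower (0.549% of all genes were). All 10 genes passed the minimum, and Cish, the lowest, had 4871 counts in both groups together. Longer genes had higher ratios, from a median of -0.18 in the shortest of 10 equal classes (333 to 1211 bases) to 0.33 in the longest (6116 to 26655 bases). Each axis gene was therefore also set against the 500 genes nearest to it in length. Relative to the median of these, 8 of the 10 were above 0 (6649 of the 13291 genes were) and Igf1 and Jak2 below, with a median of 0.16 over the axis. On that scale 0 of the 10 reached 1.5-fold in the upper direction (1.02% of all genes did) and 0 in the lower (3.49% of all genes did).

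**Figure D2:**
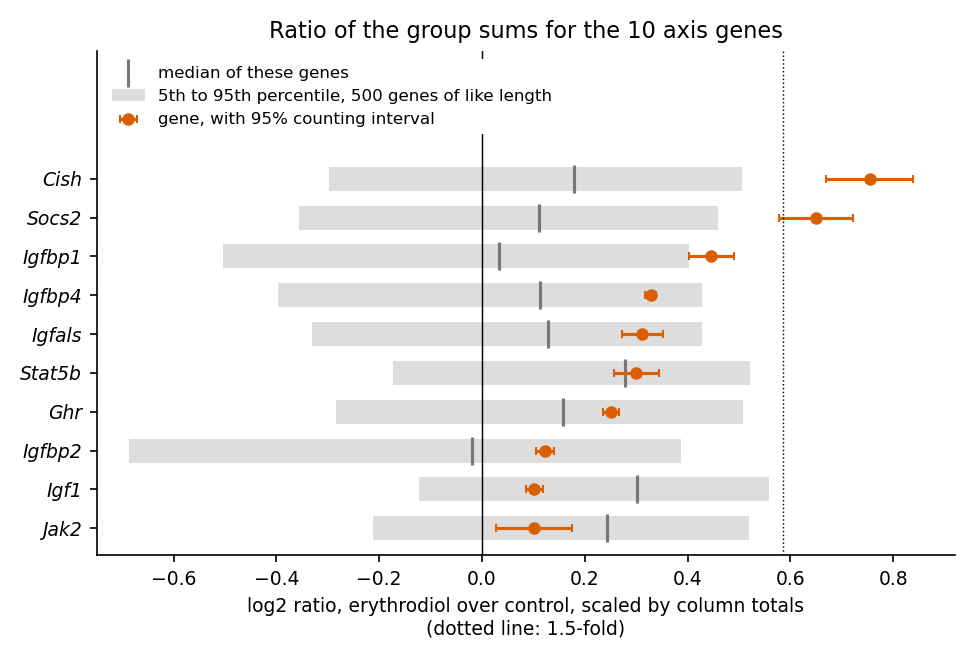
The log2 ratio of erythrodiol over control for each axis gene (circle) with its 95% counting interval, beside the median (bar) and the 5th to 95th percentile (grey band) of the 500 genes nearest in length. Cish at 0.75, Socs2 at 0.65 and Igfbp1 at 0.45 lie above their bands, the other 7 genes lie within theirs, and Igf1 and Jak2 lie below the bar.

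Cish and Socs2 showed the largest ratios of the axis. Both encode SH2-domain proteins that STAT5 induces and that shut the receptor down. Cish (coordinates of genes are those of RefSeq on GRCm38.p6, chromosome 9 from 107296659 to 107302784) had 1796 counts in control liver and 3075 after erythrodiol, a log2 ratio of 0.75 with an interval from 0.67 to 0.84. This was 1.69-fold higher with erythrodiol, and 1.49-fold relative to genes of like length, above 99.8% of them. Socs2, on chromosome 10 from 95383903 to 95417321, had 2549 and 4057 counts, a log2 ratio of 0.65 with an interval from 0.58 to 0.72. It was 1.57-fold higher, and 1.45-fold relative to genes of like length, above 98.6% of them. Both genes were above the median of all genes by more than their counting error, and the lower end of the Socs2 interval, 1.49-fold, lay just under the limit of 1.5-fold. Among genes with at least 1000 counts, 1.64% were 1.5-fold higher.

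The region at the start of Cish carries the letters of the STAT5 consensus, and it is shown because Cish had the largest ratio of the axis. The consensus searched was TTCNNNGAA, which reads the same on both strands, in windows from 250 bases before to 50 bases after each start (RefSeq, GRCm38.p6). Windows were found for 9 of the 10 genes, all but Socs2. In the stretches of the plus strand below, capitals mark the matches. The stretch of Cish lies on chromosome 9 from 107296655 to 107296684, with matches at positions 1 and 12 counted from the annotated start, both within an exon of 1 of the 5 GENCODE M21 transcripts of the gene.
Cish: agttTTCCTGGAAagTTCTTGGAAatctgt
Of the 3 windows of Igfals, 2 held a match, 236 and 58 bases upstream of their starts. These stretches lie on chromosome 17, from 24877608 to 24877667 and from 24878148 to 24878207, and neither match overlaps an exon of GENCODE M21, the first lying in an intron of 2 and the second in an intron of 3 of the 6 transcripts.
Igfals, first: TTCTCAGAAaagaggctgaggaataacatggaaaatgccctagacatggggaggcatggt
Igfals, second: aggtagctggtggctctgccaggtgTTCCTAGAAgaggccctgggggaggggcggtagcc
Over all promoters, 8.30% of windows held these letters, and 9.55% of genes had them in at least 1 window. Matches were found for 2 of the 9 axis genes, and the letters were not in the windows of Ghr, Jak2, Stat5b, Igf1 or the binding proteins. A match describes the letters alone.

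The receptor and its signalling chain had lower ratios than both inhibitors. Ghr, on chromosome 15 from 3317755 to 3583352, had 59677 counts in control liver and 72070 after erythrodiol, a log2 ratio of 0.25 (interval 0.24 to 0.27). Relative to genes of like length this was 0.09, above 65.0% of them. Stat5b, on chromosome 11 from 100780731 to 100859004, had 7522 and 9398 counts and a log2 ratio of 0.30 (interval 0.26 to 0.34), which left 0.02 relative to genes of like length. Stat5b and its neighbour Stat5a are close in sequence, and their expected counts were not whole, as happens where an estimate shares reads between transcripts or genes. Stat5a had a log2 ratio of 0.29, and the level of Stat5b per length was 2.76 times that of Stat5a in the control and 2.77 times with erythrodiol. Jak2, on chromosome 19 from 29251803 to 29313095, had 2867 and 3119 counts, a log2 ratio of 0.10 (interval 0.03 to 0.17), and was below genes of like length at -0.14. Of the 3 genes of the chain, Ghr alone had its interval above the median of its like-length genes.

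Igf1 and Igfals encode the hormone and the subunit that holds it in the circulating complex. Igf1, on chromosome 10 from 87858265 to 87937047, had 56560 counts in control liver and 61596 after erythrodiol. Its log2 ratio of 0.10 (interval 0.09 to 0.12) was under the median of all genes, and turned to -0.20 relative to genes of like length, above 18.8% of them. Igfals, on chromosome 17 from 24877844 to 24882011, had 9330 and 11752 counts and a log2 ratio of 0.31 (interval 0.27 to 0.35), or 0.18 relative to genes of like length, above 82.6% of them. Both are known STAT5B targets, but they stood on opposite sides of the median of genes of like length. Igf1 was 1.82 times as high as Igfals per length in the control and 1.57 times with erythrodiol. The length behind these levels is that deposited for each gene, 7049 bases for Igf1 and 2114 for Igfals.

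Of the binding proteins, Igfbp1 had the highest ratio. On chromosome 11 from 7197787 to 7202546, it had 7227 counts in control liver and 9988 after erythrodiol, a log2 ratio of 0.45 (interval 0.40 to 0.49). It was 1.36-fold higher with erythrodiol and 1.33-fold relative to genes of like length, above 96.0% of them. Igfbp4, on chromosome 11 from 99040005 to 99052655 and the most abundant of the axis, had 113766 and 144925 counts and a log2 ratio of 0.33 (interval 0.32 to 0.34), or 0.21 relative to genes of like length. Igfbp2, on chromosome 1 from 72824480 to 72852474, had 49245 and 54370 counts. Its log2 ratio of 0.12 (interval 0.10 to 0.14) was 0.14 relative to genes of like length and -0.04 relative to the median of all genes. The other family members in the table had log2 ratios of -0.10 for Igfbp3, 0.09 for Igfbp5, 0.24 for Igfbp6 and -0.02 for Igfbp7. Igfbp3, whose product joins IGF1 and IGFALS in the circulating complex, had 3715 and 3514 counts and was at -0.26 relative to genes of like length.

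The promoter of Igfbp1 is shown because its insulin response element is a textbook case of control by FOXO1. The letters searched were CAAAACA on both strands, in the same windows. The match, in capitals, lies 108 bases before the start, and the stretch on the plus strand of chromosome 11 from 7197639 to 7197738 is upstream of the annotated gene.
Igfbp1: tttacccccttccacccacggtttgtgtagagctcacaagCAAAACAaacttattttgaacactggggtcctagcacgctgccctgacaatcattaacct
Of the axis, Igfbp1 alone had these letters in a window, against 6.28% of all windows and 7.20% of genes with one.

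**Figure D3:**
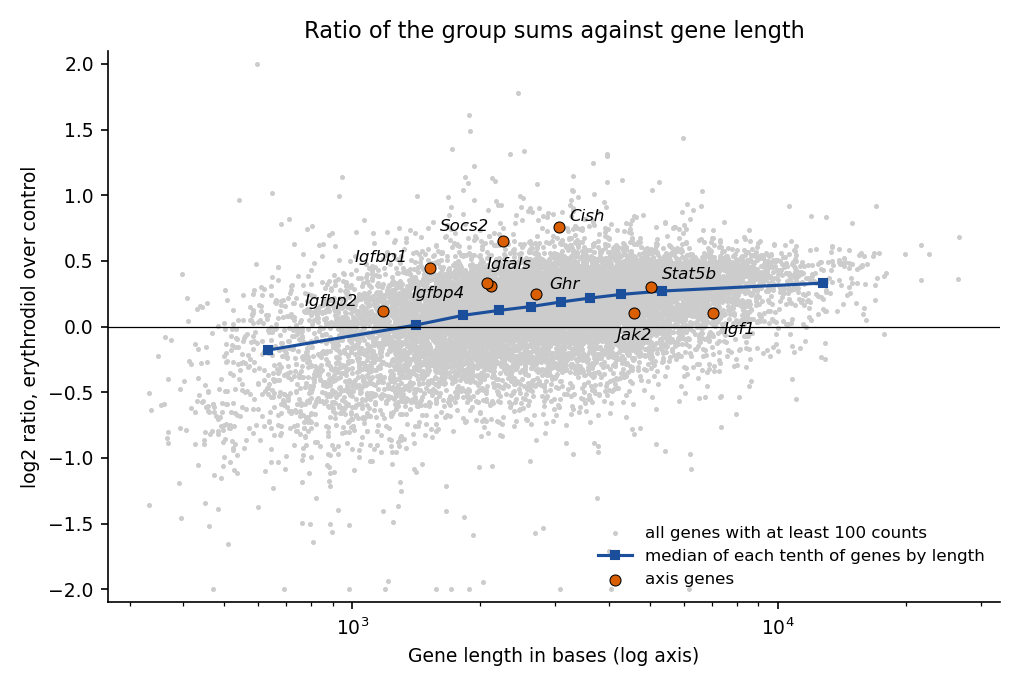
The log2 ratio of erythrodiol over control against gene length in bases (log axis) for the 13291 genes with at least 100 counts (grey, with 11 genes beyond 2 in either direction drawn at the edge), the median of each of 10 equal classes by length (blue), and the axis genes (orange). The blue line climbs from -0.18 to 0.33, Cish and Socs2 lie well above it, and Igf1 and Jak2 lie below it.

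Other genes of the pathway were taken from lists of receptors, adaptors, signalling proteins and transcription factors. Of 12 receptors and adaptors, 1 was 1.5-fold higher and 0 lower (2.55% and 3.14% of all genes were), with a median log2 ratio of 0.29 and 0.02 relative to genes of like length. The one was Irs2, the insulin receptor substrate that passes the insulin signal on in liver, with 1293 and 2079 counts and a log2 ratio of 0.66, or 0.43 relative to genes of like length. Among 9 transcription factors that act with or downstream of growth hormone, 1 was higher and 0 lower (2.55% and 3.14% of all genes were). This was Onecut1, which encodes HNF6, a factor that growth hormone induces in liver, with 947 and 1975 counts. It was 2.06-fold higher with erythrodiol and at 0.96 relative to genes of like length, above 99.2% of them. Of 13 genes of JAK and STAT signalling and its brakes, 0 were 1.5-fold higher and 0 lower (2.55% and 3.14% of all genes were). Their median was 0.21, and -0.06 relative to genes of like length. Their highest ratio was that of Stat3, 0.37, and the lowest that of Socs3, a brake on cytokine receptors induced by inflammation, with 2229 and 1799 counts and a log2 ratio of -0.33. A further list held Igf2, the other binding proteins, the proteases that cleave binding proteins and the stanniocalcins that inhibit these proteases. Of its 9 genes 5 had at least 100 counts, and 0 of these passed 1.5-fold (2.55% and 3.14% of all genes were higher and lower). Igfbp6 was the highest of the 5. Igf2, the fetal growth factor, was the lowest at -0.28, with 73 and 61 counts, near the minimum of 100 in both groups together. The other 4, Pappa, Pappa2, Stc1 and Stc2, had fewer than 100 counts.

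Of 8 targets of FOXO1 and insulin, all had log2 ratios above 0, with a median of 0.26 and of 0.07 relative to genes of like length, and 5 of the 8 were above their like-length median. Of the 8, 1 was 1.5-fold higher and 0 lower (2.55% and 3.14% of all genes were). The 1 was Pck1, the gluconeogenic enzyme PEPCK, with 109728 counts in control liver and 174872 after erythrodiol. Its log2 ratio was 0.65, or 0.50 relative to genes of like length. Igfbp1, under the same control by insulin, was at 0.45 and 0.41 on these scales.

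Liver genes that growth hormone sets in a male or a female pattern held both large and small ratios. Of 18 male-biased genes, 0 were 1.5-fold higher and 5 lower (2.55% and 3.14% of all genes were), with a median of 0.02. The 5 comprised 4 genes of the major urinary proteins, pheromone carriers of mouse urine, and Moxd1, a copper-dependent monooxygenase-like gene. Mup1 had 218879 counts in control liver and 78479 after erythrodiol, a log2 ratio of -1.50, whereas Mup20 and Mup21 were at -0.62 and -0.64. Moxd1 had 608 and 149 counts, a log2 ratio of -2.05. Relative to genes of like length 3 of the 18, Mup1, Mup3 and Moxd1, were still 1.5-fold lower (3.49% of all genes were). Of 21 female-biased genes, 12 had at least 100 counts, 2 of them 1.5-fold higher and 5 lower (2.55% and 3.14% of all genes were). The median of these 12 was -0.25, or -0.38 relative to genes of like length. On the latter scale 2 were still higher and 5 lower (1.02% and 3.49% of all genes were). The cytochromes Cyp2b13 and Cyp2b9 had the lowest log2 ratios, -3.66 and -2.0, and the cytochromes Cyp2a4 and Cyp17a1 the highest, 1.35 and 1.14. The urinary protein genes, Cyp2b9 and Cyp2b13, and Cyp2a4 have close copies in the genome, so that their expected counts depend on how reads were divided. Both sex-biased lists thus held genes past the limit while the median of each stayed within 1.5-fold. The lists were chosen with earlier results of these data known. The study had already reported Mup1, Moxd1, Cyp2b9 and Cyp2b13 as lower in these libraries. It also listed Hao2, Sult2a1 and Sult2a2, of the female-biased genes, as lower. The counts beside the shares of all genes are therefore descriptive only.

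Markers of other liver cells also differed between the groups, and they are given beside the axis because Igf1 and several binding proteins are also made outside hepatocytes. All 6 Kupffer cell markers were lower with erythrodiol, 5 of them past 1.5-fold (3.14% of all genes were), and their summed level went from 869 to 535 CPM. Marco and Adgre1 had the lowest log2 ratios of these, -1.07 and -0.75, and Clec4f and Vsig4 were at -0.65 and -0.59. Both neutrophil markers with at least 100 counts, S100a8 and S100a9, were lower at -1.19 and -1.11, and the summed level of the 5 neutrophil markers went from 9.87 to 4.42. Of 4 bile duct markers all were below 0 and 1, Krt19 at -0.89, was 1.5-fold lower (3.14% of all genes were). Their sum was 14.7 and 12.0. None of 5 endothelial and 5 stellate cell markers passed 1.5-fold, with sums of 162 and 165 and of 243 and 285, and ranges from Clec4g at -0.26 to Kdr at 0.33 and from Lrat at -0.15 to Ecm1 at 0.38. The 6 hepatocyte markers ranged from Alb at -0.06 to Tat at 0.38, with a median of 0.16. Fewer cells of a type and less RNA per cell cannot be told apart in whole liver, and the part of these cells in the ratios of the axis was not tested.

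**Figure D4:**
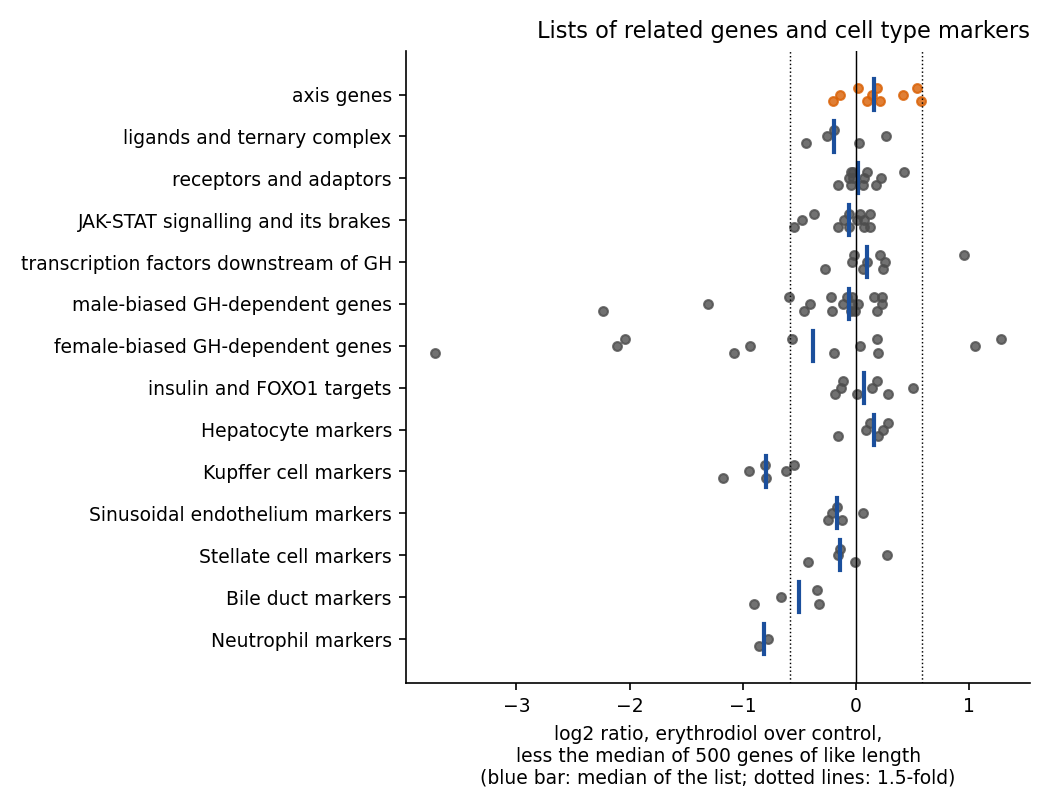
The log2 ratio of erythrodiol over control less the median of the 500 genes of like length, with 1 point per gene with at least 100 counts for the axis genes (orange) and 13 other lists (dark), a blue bar for each list's median and dotted lines at 1.5-fold. The axis genes lie between -0.20 and 0.58 with a median of 0.16, the sex-biased lists spread widest, and all Kupffer cell markers lie to the left of 0.

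Transcripts assembled by the authors and absent from their reference annotation were listed for 6 of the 10 axis genes (35.8% of all genes with at least 100 counts had one), 15 in all, in 1 list for the whole series that does not tell the diets apart. Igf1 had the most, with 7 added transcripts beside 8 in GENCODE M21, a number that 1.73% of all genes with at least 100 counts reached. Socs2 had 3, a number that 9.14% of all genes reached, Stat5b 2, and Ghr, Jak2 and Cish 1 each, while Igfals, Igfbp1, Igfbp2 and Igfbp4 had none. Each of the 7 transcripts of Igf1 held at least 1 intron that GENCODE M21 lacks, and they had between 4 and 7 exons, all ending at position 87937047. Those of Socs2 held between 3 and 5 exons. The single transcript of Cish had 2 exons over 5903 bases, and its only intron is annotated. Over the 15 transcripts, 12 had at least 1 intron outside GENCODE M21 and 3 had none, although the whole chain of introns of these 3 was not that of an annotated transcript. None of the 10 genes was among the 16 genes in the authors' lists of splicing events compared between the diets.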

How the data were processed

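Liver RNA of 7 control and 7 erythrodiol pools was sequenced in paired-end mode. The authors mapped clean reads with Bowtie2 to reference transcripts joined with new coding transcripts and estimated expression with RSEM. They deposited for each gene an expected count per group, not normalized, and its length. The deposited table is named for DEGseq and also holds the authors' ratios and p-values, which were not used. The authors deposited the count of clean reads, genes and transcripts, and the percent mapped, per library. Groups and replicate numbers are those of the labels. New transcripts, from StringTie, carry GRCm38 coordinates.

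Counts were divided by the column totals, and ratios taken without a pseudocount. A gene counted as higher or lower past 1.5-fold. Genes of like length were the 500 nearest among 13291 genes with at least 100 counts in both groups together. No test was made, since the deposited table holds 1 expected count per gene and group, without a spread between libraries. The genes, lists and limits were chosen with earlier results of these data known. All axis genes are named. Of the 13 other lists, genes past 1.5-fold are named, or the 2 highest and 2 lowest of these where over 4, and otherwise the extremes. Mup3, G6pc, Foxo1, Insr, Igf1r, Prlr and the families in the closing part were taken after their values were seen. Alternatives were other scalings, folds, minimums, numbers of genes of like length and a pseudocount of 1. The computation was tested on simulated data. R 4.3.3 with edgeR 4.0.16 gave TMM factors, and Python 3.11.15 with scipy 1.17.1, pandas 2.3.3, numpy 2.4.6 and matplotlib 3.10.9 the rest.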

Additional observations from a re-analysis of the deposited data

Results flagged for a closer look

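Of the libraries, control replicate 3 had 64.3% of its clean reads mapped to genes. This was farther from the other 6 control libraries than the spread among them allows by Dixon's criterion, which chance exceeds in about 1 of 20 groups. The criterion was applied to each library measure used here in both groups, so that chance gives at least 1 flag more often than that. No other value was flagged. The counts of control replicate 3 are part of the control sums of all axis genes and could not be taken out.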

How the results depend on the processing

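No paired analysis was possible because gene values exist as 1 sum per group and carry no replicate number. For the same reason leaving out a library and a count model with DESeq2 were not run. The number of axis genes at least 1.5-fold higher, 2 by column totals, was 1 (Cish) when ratios were centred on the median of all genes, with TMM factors, with the median of ratios and with totals that leave out the 50 most abundant genes, and 0 relative to genes of like length. The number was 4 at a limit of 25% and 0 at a fold of 2. It was 0 for lower genes under every alternative run. The median log2 ratio of the axis, 0.31, was 0.14 centred on the median of all genes, 0.16 relative to genes of like length, 0.15 with TMM factors, 0.16 with the median of ratios and 0.21 without the 50 most abundant genes. It was 0.28 without Socs2 and Cish, an alternative chosen after seeing the data. Centring moved all genes by 0.16. Of the 13291 genes, those 1.5-fold higher and lower went from 339 and 417 to 115 and 819, and to 136 and 464 relative to genes of like length. They were 121 and 808 with TMM factors and 133 and 775 with the median of ratios. Without the 50 most abundant genes in the totals they were 163 and 653. Of 70 recomputed values of single axis genes 59 were above 0, and the 11 below 0 were those of Igf1, Jak2 and Igfbp2. The 70 include a pseudocount of 1 and a minimum of 100 counts, which all axis genes pass. These alternatives left every value all but unchanged, so their share of the 59 says nothing on stability. Relative to genes of like length, 200 or 1000 neighbours and other minimums gave medians between 0.16 and 0.18. Without correction for length, Igfbp4 was 63.3 times as high as Cish in the control, instead of 93.8 times. The order of levels also changed in the control, with Igf1 at 460 CPM above Igfbp2 at 401 and Stat5b at 61.2 above Igfbp1 at 58.8. Of the 70 values, 21 lay within the counting interval of the gene and 49 outside it. The 21 were those with the pseudocount or the minimum of counts, and otherwise only Igfbp1 relative to genes of like length. The spread between libraries is unknown.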

Other observations

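The families to which the axis genes belong were completed after values had been seen. Of the 8 genes of the SOCS family, the axis genes Cish and Socs2 were the 2 at least 1.5-fold higher (2.55% of all genes were). Socs4, Socs6 and Socs7 had log2 ratios of 0.32, 0.14 and 0.26, and Socs1, Socs3 and Socs5 were at -0.13, -0.33 and -0.09. Relative to genes of like length 3 of the 8 were above 0, with a median of -0.08. On that scale 0 of the 8 were 1.5-fold higher (1.02% of all genes were) and 0 lower (3.49% of all genes were). The 4 kinases of the JAK family lay between 0.10 for Jak2 and 0.33 for Jak3, and the 7 binding proteins between -0.10 for Igfbp3 and 0.45 for Igfbp1. The receptors of related hormones had log2 ratios of 0.19 for Igf1r, with 400 and 462 counts, 0.34 for Prlr, the prolactin receptor, with 9966 and 12791 counts, and 0.42 for Insr, the insulin receptor, with 14765 and 20027 counts. Relative to genes of like length these were -0.16, 0.10 and 0.07. G6pc, the last enzyme of glucose production, had 29404 and 39251 counts and a log2 ratio of 0.40, or 0.28 relative to genes of like length. Foxo1, which encodes the insulin-restrained factor itself, had 3808 and 5558 counts and a log2 ratio of 0.52, or 0.26 relative to genes of like length.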
